A study of Mus musculus with 2 samples.

Results

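The regions described here were the methylated regions with the most sequenced fragments in 2 layers of the embryonic mouse cerebral wall. Regions were chosen by their tags: a peak over control was included when it lay on chromosomes 1 to 19 and held at least 100 tags, a tag being 1 aligned sequence read. This gave 2675 of 50968 listed autosomal peaks in the cortical plate (CP; 5.25%, Wilson 95% interval 5.06 to 5.45) and 895 of 50667 in the ventricular and subventricular zone (V/SVZ; 1.77%, 1.66 to 1.88). Together they were 3570 of 105687 listed peaks on all chromosomes. The CP, where neurons differentiate, and the V/SVZ, where neuronal progenitors are abundant, were dissected by hand from ICR mouse embryos at embryonic day 16. Genomic DNA of each was enriched for methylated fragments with a methyl-binding-domain kit, sequenced, and called for peaks over a control whose nature is not given in the sources used here. Each layer gave 1 library, so there was no replicate error, no p was computed, and every interval covers counting error only. The layers are mixed tissue: a region methylated in fewer cells and one with less methylation per cell cannot be told apart. No expression was measured, so the identity of the dissected layers was not checked against marker genes.

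Cytosine methylation in mammals falls mainly on CpG dinucleotides, and a methyl-binding domain captures fragments that carry several methylated CpGs. Tags per base thus depend on how many CpGs a region holds as well as on how many of them are methylated. Most CpG-rich promoters are unmethylated. Known exceptions include promoters of germline genes, which somatic cells methylate, and imprinted control regions, which are methylated on the copy from 1 parent.

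The promoters of 4 germline genes, 1 imprinted gene and 1 sperm gene poor in CpG are shown as examples of genes with a tag-rich CP region at the promoter. The windows run from 250 bases before to 50 bases after a transcript start and come from RefSeq, assembly GRCm38.p6, matched by gene ID. The peaks are placed in mm9, so a window can belong to another transcript start than the one under the peak, and the sequence of the peaks themselves was not read. Each is written 5′ to 3′ in the direction of transcription, in lower case, with every CpG in capitals. Sycp1 (chr3:102936051-102936350, minus strand), which encodes a protein of the synaptonemal complex, held 21 CpGs in its window. Dazl (chr17:50293571-50293870, minus strand), an RNA-binding protein of germ cells, held 28. Mael (chr1:166238695-166238994, minus strand), which acts in the silencing of transposons in the germ line, held 24. Ddx4 (chr13:112652261-112652560, minus strand), a germ cell RNA helicase, held 38. Plagl1 (chr10:13090582-13090881, plus strand), an imprinted zinc finger gene, held 26. Prm2 (chr16:10792056-10792355, minus strand), a protamine that packs sperm DNA, held 3 and is shown as the contrast.
Sycp1: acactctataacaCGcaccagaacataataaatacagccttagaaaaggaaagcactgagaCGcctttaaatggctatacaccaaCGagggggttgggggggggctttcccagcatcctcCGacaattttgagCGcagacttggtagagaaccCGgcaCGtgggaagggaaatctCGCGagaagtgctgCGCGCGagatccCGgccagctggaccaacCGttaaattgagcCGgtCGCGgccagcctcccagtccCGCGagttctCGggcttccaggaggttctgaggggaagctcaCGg
Dazl: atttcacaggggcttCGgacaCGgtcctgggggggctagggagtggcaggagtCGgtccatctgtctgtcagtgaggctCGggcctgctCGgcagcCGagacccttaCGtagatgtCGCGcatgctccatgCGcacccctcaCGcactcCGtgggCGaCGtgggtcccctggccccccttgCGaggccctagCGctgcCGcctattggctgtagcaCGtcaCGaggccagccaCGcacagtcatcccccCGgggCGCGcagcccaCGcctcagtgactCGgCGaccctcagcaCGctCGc
Mael: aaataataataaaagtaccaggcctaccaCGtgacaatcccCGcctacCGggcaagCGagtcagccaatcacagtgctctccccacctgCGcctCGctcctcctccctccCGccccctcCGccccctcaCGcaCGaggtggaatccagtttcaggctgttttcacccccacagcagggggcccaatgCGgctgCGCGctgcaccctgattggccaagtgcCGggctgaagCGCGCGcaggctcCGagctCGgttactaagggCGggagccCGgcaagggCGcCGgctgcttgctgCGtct
Ddx4: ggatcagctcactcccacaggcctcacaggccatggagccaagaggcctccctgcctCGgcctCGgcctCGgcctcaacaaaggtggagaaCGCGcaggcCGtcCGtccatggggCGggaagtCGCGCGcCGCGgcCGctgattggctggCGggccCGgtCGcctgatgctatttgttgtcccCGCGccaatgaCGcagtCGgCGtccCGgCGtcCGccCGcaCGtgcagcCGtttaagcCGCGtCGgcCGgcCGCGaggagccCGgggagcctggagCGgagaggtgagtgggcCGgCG
Plagl1: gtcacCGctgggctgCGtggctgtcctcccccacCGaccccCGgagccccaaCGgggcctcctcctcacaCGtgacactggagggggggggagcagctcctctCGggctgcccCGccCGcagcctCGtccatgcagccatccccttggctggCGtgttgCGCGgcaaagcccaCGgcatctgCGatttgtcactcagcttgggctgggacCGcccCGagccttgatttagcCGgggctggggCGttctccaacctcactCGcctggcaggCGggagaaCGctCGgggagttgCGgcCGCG
Prm2: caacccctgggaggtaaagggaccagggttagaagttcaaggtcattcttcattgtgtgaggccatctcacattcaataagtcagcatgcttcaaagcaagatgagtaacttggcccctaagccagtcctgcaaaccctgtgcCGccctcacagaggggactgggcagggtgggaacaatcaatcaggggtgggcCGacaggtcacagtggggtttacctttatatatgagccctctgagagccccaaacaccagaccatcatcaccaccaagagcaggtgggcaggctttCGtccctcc

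CpG content was higher in the promoters of the tag-rich set than in promoters as a whole. Of 99 genes whose 5′ end lay under a tag-rich CP region, 83 (83.8%) had a RefSeq window of 300 bases. These windows held a median of 14 CpGs (95% interval of the median 12 to 17), against 7 in the windows of 25748 autosomal genes. The 18 germline genes with a window held a median of 20 (16 to 24), and the other 65 held 12 (10 to 16). The range within the set was wide, as the 38 CpGs of Ddx4 and the 3 of Prm2 show. For the V/SVZ set, 17 of 24 genes (70.8%) had a window, and for promoters under smaller CP peaks 214 of 289 (74.0%). With so large a share of genes unmatched, the comparison is void for both.

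Short motifs were searched on both strands of these windows. A gene counted when any of its windows held the motif, so genes with several windows had more chances to match. The E2F core (TCCCGC or GCGGGA) occurred in 36.1% of the 83 genes of the tag-rich CP set (Wilson interval 26.6 to 46.9%) and in 22.3% of all genes with a window. The E-box CACGTG occurred in 24.1% (16.2 to 34.3%) and in 8.11% of all, and in 8 of the 18 germline genes with a window (44.4%, 24.6 to 66.3%). The cyclic AMP response element TGACGTCA occurred in 7.23% (3.36 to 14.9%) and in 2.08% of all. All 3 motifs contain a CpG, the letters that the windows above had more of, and a match is a string of letters and not a shown binding site.

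Tag-rich regions were a small share of the lists and a large share of the tags. In CP they held 30.0% of the tags in listed autosomal peaks on 10.3% of the peak length (489081 tags over 2.37 Mb). In V/SVZ they held 16.7% of the tags on 4.15% of the length (162345 tags over 0.884 Mb). The median region had 144 tags in CP (interquartile range 117 to 201, highest 1974) and 140 in V/SVZ (115 to 195, highest 1468). Since the minimum cuts both layers at 100 tags, the medians lie close together by construction and the layers differ in how many regions pass. The CP library held more tags at shared peaks in general, with a median CP to V/SVZ ratio of 1.81 over 32326 shared autosomal CP peaks, and no source used here states how many reads each library had.

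Tags per bp of peak, which sets the tags against the length of the peak, spanned a wide range within the set. The median was 0.192 in CP (0.0457 to 1.76) and 0.166 in V/SVZ (0.0418 to 1.26), beside 0.0420 in CP and 0.0306 in V/SVZ for peaks under 100 tags. A density of at least 0.5 tags per bp was reached by 139 CP and 62 V/SVZ regions, and a density of at least 1 by 16 CP and 6 V/SVZ regions. Lengths had medians of 811 bp in CP (261 to 2688) and 910 bp in V/SVZ (263 to 3305). Across the regions, tags followed density (Spearman rho 0.521 in each layer, n = 2675 in CP and 895 in V/SVZ) more than length (0.265 in CP and 0.0905 in V/SVZ). Density is computed from the tags, so these are descriptions of 1 set of values. The authors' fold over local expectation did not grow with tags (rho −0.156 in CP and −0.0209 in V/SVZ), and its median was 25.4 in CP and 23.0 in V/SVZ, against 27.5 in CP and 29.3 in V/SVZ for peaks under 100 tags. The deposited significance score stopped at a common value for the strongest peaks: 67 CP and 31 V/SVZ regions had a score of exactly 3100, so the score does not rank them.

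**Figure D1:**
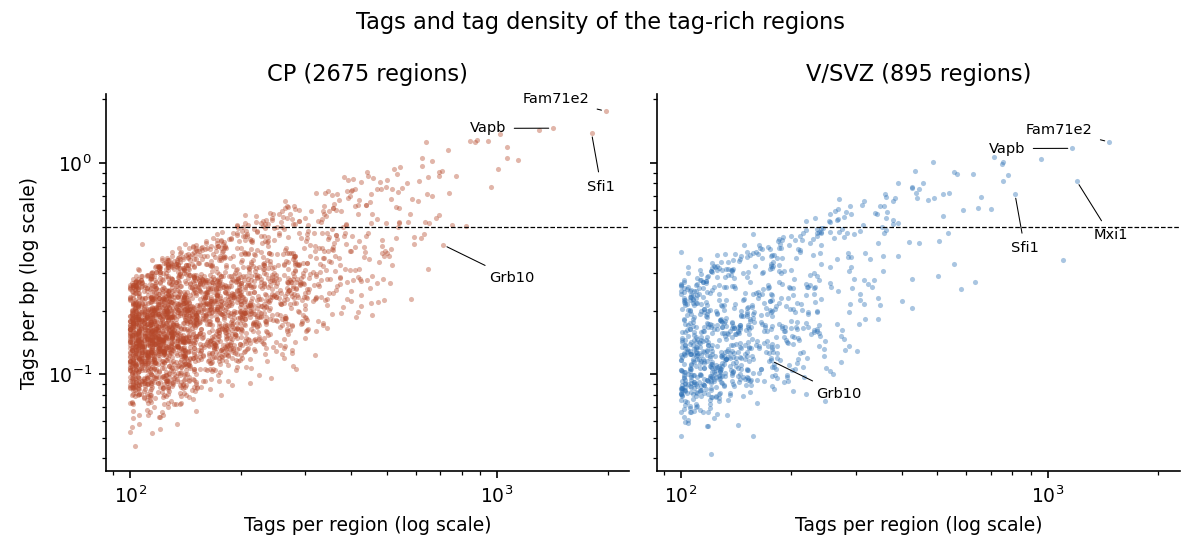
Tags per region (x, log scale) against tags per bp (y, log scale) for the 2675 CP regions (left) and the 895 V/SVZ regions (right), 1 point per region, with a dashed line at 0.5 tags per bp. The densest regions are also those with the most tags, while regions near 100 tags spread over a wide range of densities.

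The region with the most tags was 1123 bp long and lay inside Fam71e2 (mm9 chr7:4706773-4707895), with 1974 tags in CP and 1468 in V/SVZ (ratio 1.34, exact 95% interval 1.26 to 1.44). A region inside Vapb, a membrane protein of the endoplasmic reticulum, had 1419 tags in CP and 1165 in V/SVZ (ratio 1.22, 1.13 to 1.32). A region 1325 bp downstream of Shq1, an assembly factor of H/ACA ribonucleoproteins, had 1300 CP and 960 V/SVZ tags (ratio 1.35, 1.24 to 1.47). These ratios all lay below the 1.81 median of shared peaks. The promoter of Sfi1, a centrosomal gene, lay above it, with 1808 tags in CP and 815 in V/SVZ (ratio 2.22, 2.04 to 2.41). Regions inside Acap2 (1064 CP and 590 V/SVZ tags), Stau2 (879 CP and 539 V/SVZ), Tex2 (942 CP and 751 V/SVZ) and upstream of the kinesin gene Kif3c (1064 CP and 755 V/SVZ) followed. Stau2 encodes an RNA-binding protein that carries transcripts in neurons. The V/SVZ regions inside Mxi1 (1201 tags) and at mm9 chr9:2999903-3003089 (1104 tags) overlapped no listed CP peak and no direct call. The CP list stops at a fold of 14.71. The chromosome 9 region had a fold of 12.75, below that, and Mxi1 one of 15.22, close to it, so their CP tags are not known. How reads with several matches were treated is not given in the sources used here, which bears on any repeated sequence among these regions.

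Tag-rich regions lay at promoters, over 3′ ends and inside genes more often than smaller peaks did, and away from genes less often. A promoter region covers a transcript's 5′ end or lies within 1 kb upstream of it. Promoter regions numbered 111 of 2675 in CP (4.15%, 3.46 to 4.97), against 0.965% (0.882 to 1.06) of CP peaks under 100 tags. In V/SVZ they numbered 30 of 895 (3.35%, 2.36 to 4.74), against 1.03% (0.948 to 1.13). The intervals of the tag-rich and the smaller peaks did not overlap in either layer. Regions inside genes made up 48.4% in CP (46.5 to 50.3) against 39.9% of smaller peaks, and 58.3% in V/SVZ (55.1 to 61.5) against 44.3%. Regions over a 3′ end were 1.20% in CP (0.849 to 1.68) against 0.389%, and 2.46% in V/SVZ (1.63 to 3.69) against 0.338%. Regions with no gene within 10 kb were 38.0% in CP (36.2 to 39.9) against 49.1%, and 26.6% in V/SVZ (23.8 to 29.6) against 45.1%. Upstream and downstream regions differed less, with shares of 4.11% each in CP, against 5.24% upstream and 4.38% downstream for smaller peaks.

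Peak length moves with the number of tags, and a longer peak meets a gene's end more easily. Among regions of 500 bp to under 1000 bp the promoter share was 3.74% (2.89 to 4.84, n = 1470) against 1.54% (1.33 to 1.77, n = 11904) in CP. In V/SVZ it was 2.49% (1.31 to 4.66, n = 362) against 1.64% (1.41 to 1.90, n = 10689), intervals that overlap. The share inside genes kept its direction in this window, at 49.6% against 39.1% in CP and 61.6% against 46.0% in V/SVZ. In CP the promoter share climbed along the tag scale, at 0.773% for 7 to 24 tags, 1.17% for 25 to 49, 1.75% for 50 to 99, 3.57% for 100 to 199, 5.47% for 200 to 499 and 9.23% for 500 or more (65 regions, 4.30 to 18.7%). The V/SVZ share did not climb past 100 tags, with 3.68% for 100 to 199 tags and 2.13% for 200 to 499.

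**Figure D2:**
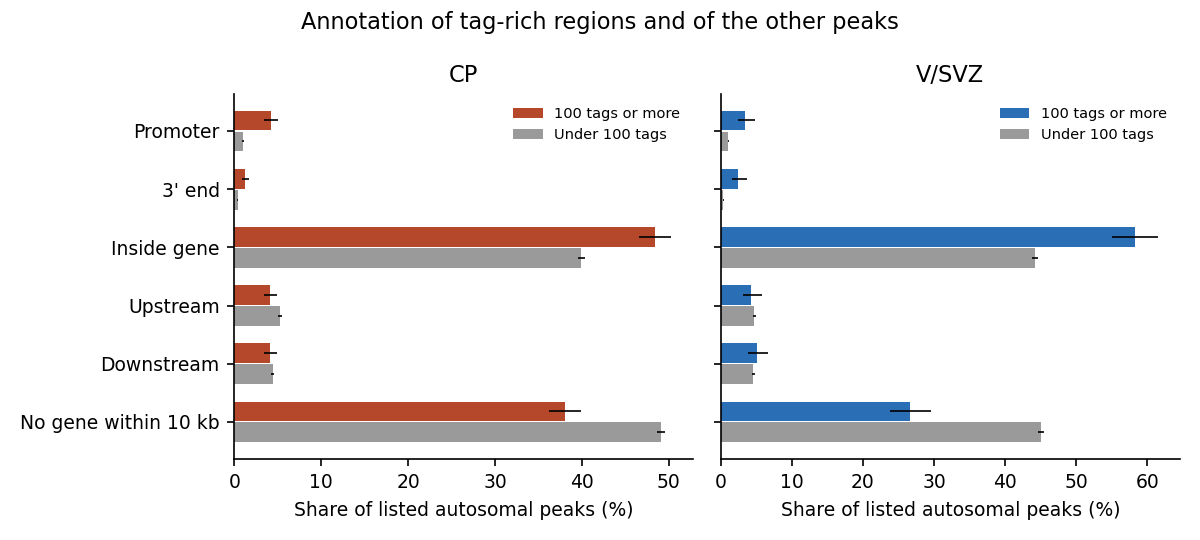
Share of listed autosomal peaks (x, percent) in each annotation class (y), for peaks of 100 tags or more (coloured, upper bar) and under 100 tags (grey, lower bar) in CP (left) and V/SVZ (right), with Wilson 95% intervals as black lines. Promoter, 3′ end and inside-gene bars are longer for tag-rich regions in both layers, and the bar for no gene within 10 kb is shorter.

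The minimum of 100 tags fell within a continuous range. The 229 CP regions of 100 tags to 4 above had a median of 0.150 tags per bp and the 271 of 95 to 99 tags had 0.148. In V/SVZ the values were 0.120 tags per bp (81 regions) and 0.111 (86 regions).

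Nearly every tag-rich CP region had a V/SVZ peak at the same place. Of 2675, 2644 (98.8%, 98.4 to 99.2) overlapped a listed V/SVZ peak by at least 1 bp, against 61.5% of CP peaks under 100 tags. Of the 895 V/SVZ regions, 685 (76.5%, 73.7 to 79.2) overlapped a listed CP peak, against 63.9%. Peak summits were a median of 21 bp apart at CP regions and 17 bp at V/SVZ regions. The tags of both layers went together across regions (Spearman rho 0.709 over 2644 CP regions and 0.583 over 685 V/SVZ regions), and these points share their CpG content and libraries. In 657 pairs both peaks reached 100 tags, which is 24.6% of the CP set and 73.4% of the V/SVZ set. CP had more tags than V/SVZ in 606 of the 657 pairs, with a median ratio of 1.67.

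The lists end at different folds, which bears on what looks unshared. The CP list stops at a fold of 14.71 and the V/SVZ list at 11.48. V/SVZ regions with a fold of at least 14.71 overlapped a CP peak in 88.6% of 748 cases (86.2 to 90.7), and those below it in 22 of 147 cases. Of the 210 V/SVZ regions with no listed CP peak, 37 carried a direct call of CP over V/SVZ, 25 a call of V/SVZ over CP and 148 neither. The calls at 4 of these show many CP tags: 1113 at Lingo3, 1114 at Lrfn1, 814 at Ankrd9 and 655 at Sbk1, beside V/SVZ peaks of 428, 426, 309 and 308 tags. Lrfn1 encodes a synaptic adhesion protein. At these 4 the CP tags were many although no CP peak was listed; at the 148 without a call the CP tags are not known. Of the 31 CP regions without a listed V/SVZ peak, 20 carried a CP over V/SVZ call and none a V/SVZ over CP call. The set is incomplete in the same way: of 1403 CP over V/SVZ calls with at least 100 tags, 291 lay outside the listed CP control peaks, and of 258 V/SVZ over CP calls, 16 lay outside those of V/SVZ.

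The authors also called peaks of each layer directly against the other. In CP, 1112 of 2675 tag-rich regions (41.6%, 39.7 to 43.4) overlapped a CP over V/SVZ call, against a background of 27.6% of all listed autosomal CP peaks and 26.8% of those under 100 tags. A V/SVZ over CP call overlapped 218 of them (8.15%, 7.17 to 9.25; background 11.0%). In V/SVZ, 140 of 895 regions (15.6%, 13.4 to 18.2; background 10%) overlapped a CP over V/SVZ call and 242 (27.0%, 24.2 to 30.0; background 36.3%) a V/SVZ over CP call. CP over V/SVZ calls were above the background share in both sets and V/SVZ over CP calls below it, but lengths differ. Among V/SVZ regions of 500 bp to under 1000 bp, 31.8% (27.2 to 36.7) had a V/SVZ over CP call against 19.9% of smaller peaks, and 14.4% had a CP over V/SVZ call against 16.5%. In that window, CP regions carried CP over V/SVZ calls more often, at 46.9% against 24.2%, and V/SVZ over CP calls about as often, at 8.10% (6.81 to 9.60) against 8.60% (8.11 to 9.12). The direct calls use the same libraries that chose the regions and are no independent measure. The deposited false discovery rate was 100% for every CP over V/SVZ call, and at most 5% for 1 of the V/SVZ over CP calls at CP regions and for 9 at V/SVZ regions.

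**Figure D3:**
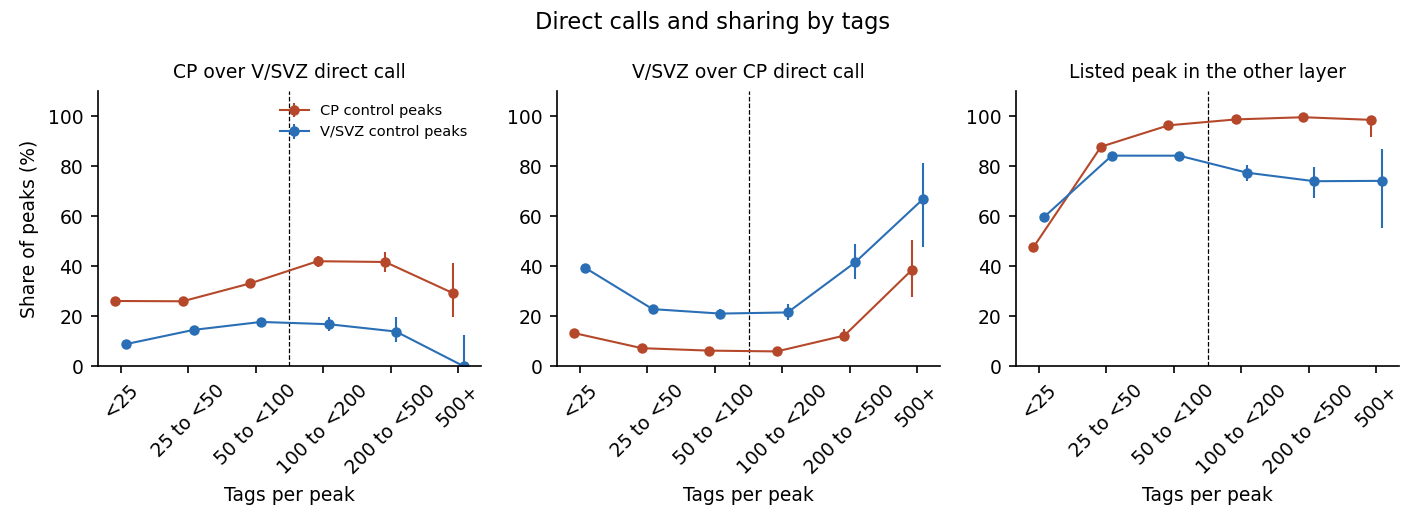
Share of control peaks (y, percent, with Wilson 95% intervals) by tags per peak (x) in CP (red) and V/SVZ (blue), for a CP over V/SVZ call (left), a V/SVZ over CP call (middle) and a listed peak in the other layer (right). The dashed line marks the minimum of 100 tags, and V/SVZ over CP calls are most frequent at both ends of the tag range.

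A direct call did not mean more tags in the layer it names. At the 218 CP regions with a V/SVZ over CP call, CP still had more tags at 167, with a median CP to V/SVZ ratio of 1.19 (1.15 to 1.21), lower than the 1.99 of regions without a call. At the 1092 shared CP regions with a CP over V/SVZ call the median ratio was 3.22 (3.15 to 3.26) and the lowest 2.06. CP over V/SVZ calls at CP regions thus all lay above the 1.81 of shared peaks. V/SVZ over CP calls lay mostly below it, with exceptions such as Zbtb4, a methyl-CpG-binding zinc finger gene, at 140 CP and 73 V/SVZ tags (1.92), named after its value was seen. Since the minimum raises the layer it is applied to, ratios depend on which layer chose the region: the median was 2.37 (2.33 to 2.42) at CP regions and 1.64 (1.59 to 1.69) at V/SVZ regions. Relative to the median of shared peaks, 360 of 2644 CP regions (13.6%; background 8.90%) were at least 2 times higher and 32 (1.21%; background 11.0%) at least 2 times lower. Of 685 V/SVZ regions, 7 (1.02%; background 9.29%) were that much higher and 57 (8.32%; background 11.1%) that much lower.

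**Figure D4:**
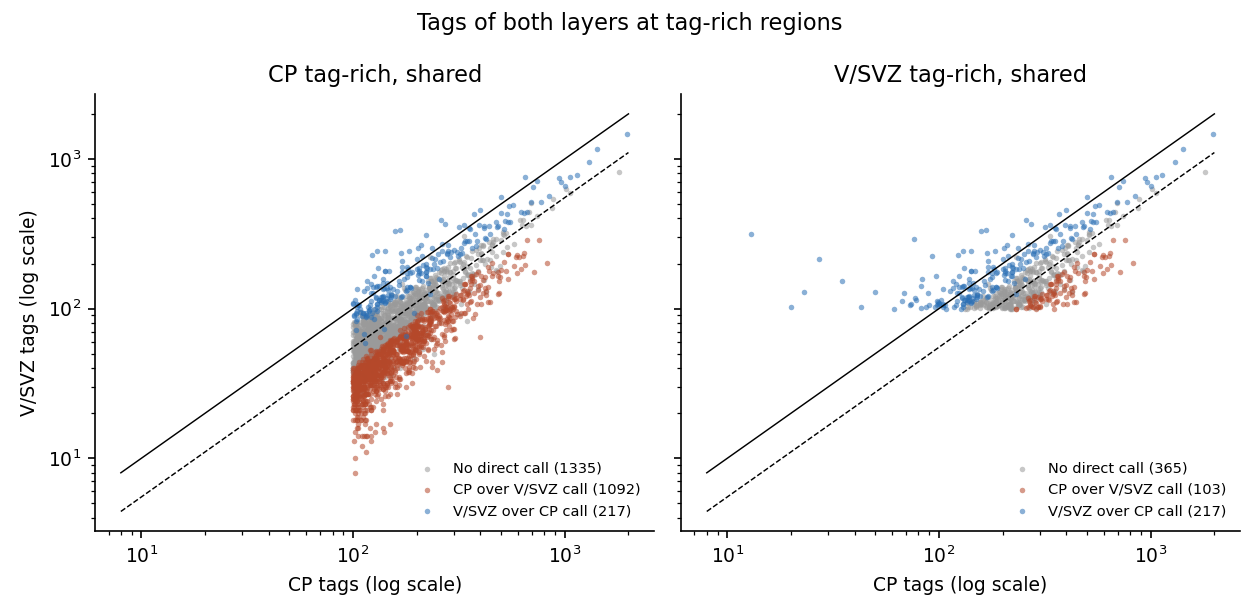
CP tags (x, log scale) against V/SVZ tags (y, log scale) at shared tag-rich regions of CP (left, 2644) and V/SVZ (right, 685), coloured by direct call, with a solid line at equal tags and a dashed line at the CP to V/SVZ median of 1.81. CP over V/SVZ calls (red) lie below the dashed line and V/SVZ over CP calls (blue) mostly above it, many still below the solid line. The region with both calls is drawn in red.

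The densest regions stood apart in the direct calls. Of 139 CP regions with at least 0.5 tags per bp, 22 (15.8%) carried a CP over V/SVZ call and 60 (43.2%) a V/SVZ over CP call. At 0.1 to 0.2 tags per bp the counts were 565 (46.5%) and 40 (3.29%) of 1215. Of the 62 V/SVZ regions with at least 0.5 tags per bp, 0 carried a CP over V/SVZ call. That count allows a share of up to 4.84%. A V/SVZ over CP call was carried by 49 of them (79.0%). Among all listed autosomal peaks, the share with a CP over V/SVZ call was 27.6% in CP and 10% in V/SVZ. The share with a V/SVZ over CP call was 11.0% in CP and 36.3% in V/SVZ. The median CP to V/SVZ ratio fell along the density scale, with 2.70 in CP regions under 0.1 tags per bp, 2.53 at 0.1 to 0.2, 2.23 at 0.2 to 0.5 and 1.53 (1.47 to 1.63) at 0.5 or more. At V/SVZ regions the same classes had medians of 2.19, 1.89, 1.43 and 1.35 (1.22 to 1.42). Density at V/SVZ regions is computed from the V/SVZ tags, which are also the denominator of the ratio. The lower ratios and more frequent V/SVZ over CP calls at dense V/SVZ regions can thus follow in part from the sorting. How large that part is was not tested. At CP regions density is computed from the CP tags, the numerator of the ratio, and the regions were chosen by those tags. Their median length was 1386.5 bp under 0.1 tags per bp and 604 bp at 0.5 or more. What sorting and peak length contribute at CP regions was not tested either. Even at 0.5 tags per bp or more, CP tags were the higher at most regions. The ratio was under 1 at 5 of the 139 CP and 12 of the 61 shared V/SVZ regions. Of the 139 CP regions, 67 lay inside genes, 50 away from genes and 2 at promoters.

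Calls also differed between annotation classes. At promoters 63 of 111 CP regions (56.8%) carried a CP over V/SVZ call and 4 a V/SVZ over CP call, and the median ratio was 2.68 (2.41 to 2.92). Away from genes 544 of 1017 (53.5%) carried a CP over V/SVZ call, with a median ratio of 2.72 (2.61 to 2.79). Inside genes the count was 421 of 1295 (32.5%), with a ratio of 2.18 (2.13 to 2.22), and over 3′ ends it was 5 of 32 (15.6%). Among tag-rich CP regions, those at promoters and away from genes were therefore more often called CP over V/SVZ than those inside genes. Of 238 V/SVZ regions away from genes, 32 (13.4%) carried a CP over V/SVZ call and 99 (41.6%) a V/SVZ over CP call. Inside genes these were 86 (16.5%) and 110 (21.1%) of 522, and at promoters 8 and 2 of 30. Over all listed autosomal peaks, CP over V/SVZ calls had shares of 27.6% in CP and 10% in V/SVZ. V/SVZ over CP calls had 11.0% in CP and 36.3% in V/SVZ.

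Of the gene lists examined, the germline list had the most genes with a tag-rich CP promoter region. Of 36 listed germline genes with a peak in either layer, 22 had a tag-rich region in CP (61.1%) and 6 in V/SVZ (16.7%), beside 16.2% in CP and 6.85% in V/SVZ of 12631 genes with a listed peak. At 19 of the 22 the region lay at the promoter, beside 117 of all 2041 genes with a tag-rich CP region. All 22 regions overlapped a V/SVZ peak, 14 a CP over V/SVZ call and 1 a V/SVZ over CP call, and the median ratio was 2.94. Over all tag-rich CP regions the shares were 98.8%, 41.6% and 8.15%, and the median ratio was 2.37. Hsf5, a heat shock factor family gene, had 620 CP and 183 V/SVZ tags (ratio 3.39, 2.87 to 4.02). Dazl had 529 CP and 177 V/SVZ tags (2.99, 2.52 to 3.56), and Sycp1 401 CP and 107 V/SVZ (3.75, 3.02 to 4.68). All 3 ratios lay above the 2.37 median of tag-rich CP regions.

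Genes of the piRNA pathway, which silences transposons in germ cells, were among them. Tdrd1, a Tudor protein of that pathway, had 236 CP and 44 V/SVZ tags (ratio 5.36, 3.87 to 7.58). Mov10l1, its RNA helicase, had 250 CP and 62 V/SVZ (4.03, 3.04 to 5.42). Mael had 276 CP and 115 V/SVZ (2.40) and Piwil1, a PIWI protein, 238 CP and 111 V/SVZ (2.14), neither with a direct call. Genes of meiotic recombination and pairing followed. Sycp2 had 283 CP and 76 V/SVZ tags, Msh4, a MutS homolog, 203 CP and 86 V/SVZ, Spo11, which makes meiotic double-strand breaks, 189 CP and 75 V/SVZ, and Hormad1 101 CP and 35 V/SVZ. Ddx4 had 136 CP and 33 V/SVZ tags (4.12, 2.80 to 6.23) and Brdt, a bromodomain protein of the testis, 171 CP and 43 V/SVZ (3.98, 2.83 to 5.69). The transcription factors Sohlh2 (219 CP and 73 V/SVZ) and Figla (165 CP and 86 V/SVZ) act in germ cell differentiation. Piwil4 went the other way: 5615 bp upstream of it a dense region held 333 CP and 361 V/SVZ tags (ratio 0.922, 0.792 to 1.07) under a V/SVZ over CP call.

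Further genes with testis or meiotic roles stood among the 99 promoters and were picked out after their values were seen. Stra8, needed for entry into meiosis, had 276 CP and 115 V/SVZ tags, Tex12, of the synaptonemal complex, 267 CP and 97 V/SVZ, and Boll, a relative of Dazl, 214 CP and 59 V/SVZ. Rnf17 had 110 CP and 23 V/SVZ tags, Adad1 114 CP and 20 V/SVZ, and Spata22 104 CP and 33 V/SVZ. Prm2, whose window held 3 CpGs, still had 140 CP and 76 V/SVZ tags (ratio 1.84) in its region of 570 bp.

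Imprinted genes were the other class of methylated CpG-rich sequence named at the start. Of 44 with a listed peak, 14 had a tag-rich region in CP (31.8%), over 12 distinct regions, and 6 in V/SVZ (13.6%). The shares over all genes were 16.2% in CP and 6.85% in V/SVZ. The CP region lay at the promoter of 8 of the 14 genes, beside 117 of all 2041 genes with a tag-rich CP region. A region inside Grb10, a growth-limiting adaptor gene, had 713 CP and 176 V/SVZ tags (ratio 4.05, 3.43 to 4.81). A single region served both Peg3 and Usp29, with 262 CP and 51 V/SVZ tags (5.14, 3.79 to 7.08), and it overlapped calls in both directions. Plagl1 had 269 CP and 67 V/SVZ tags (4.01, 3.06 to 5.33), Peg12 193 CP and 50 V/SVZ, Mkrn3 187 CP and 64 V/SVZ, and Nap1l5, which lies within Herc3, 178 CP and 64 V/SVZ. Igf2r, the receptor that clears Igf2, had 301 CP and 120 V/SVZ (2.51, 2.02 to 3.13) inside the gene without a direct call. The 11 shared regions had a median ratio of 2.78, beside 2.37 over all tag-rich CP regions, and 7 of the 12 carried a CP over V/SVZ call, beside 41.6% of all. CP had more tags than V/SVZ at each of the 11, as it had at 98.1% of all shared tag-rich CP regions, which were chosen by their CP tags. In V/SVZ, Gnas (255 tags), Zrsr1 (197), Impact (279) and Kcnq1 (136) were tag-rich without a listed CP peak. The folds of Gnas (13.33), Zrsr1 (12.81) and Impact (11.85) lay below the 14.71 at which the CP list stops, and that of Kcnq1 (17.03) above it. A missing CP peak therefore says little at the first 3. Impact also overlapped a CP over V/SVZ call. At Gnas a CP over V/SVZ call held 810 CP tags, another peak missing from the CP control list.

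**Figure D5:**
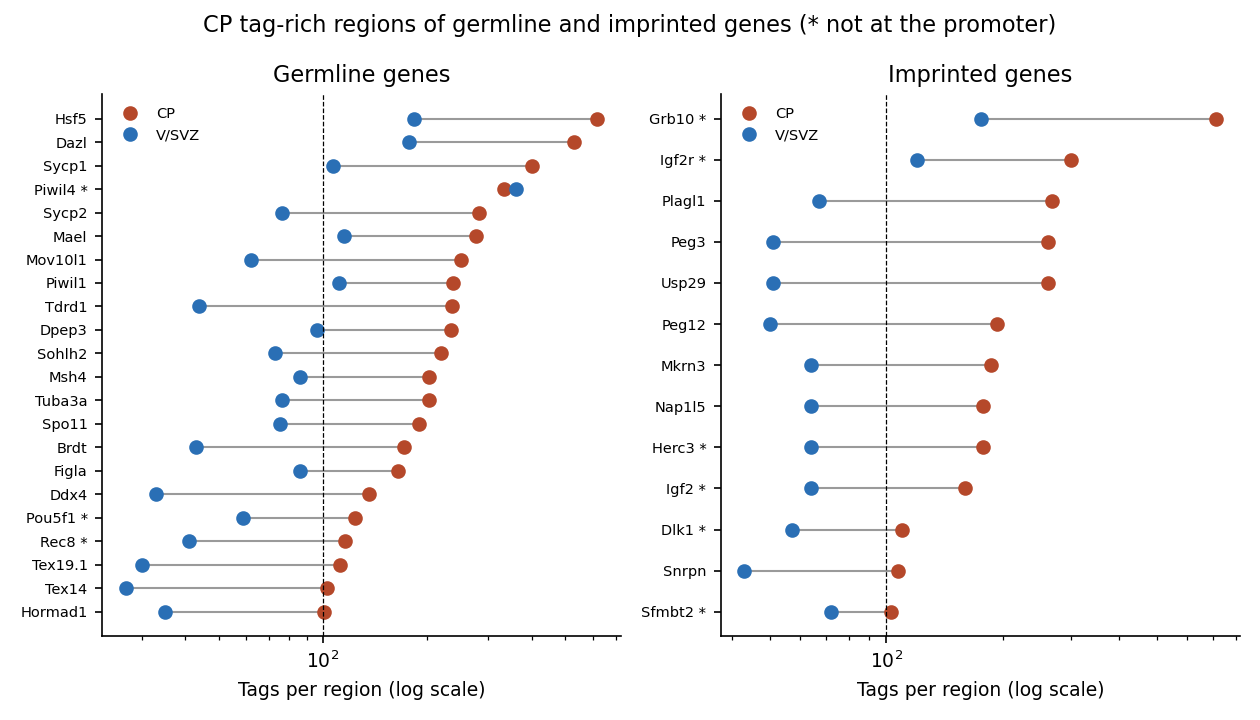
CP (red) and V/SVZ (blue) tags (x, log scale) at the CP tag-rich region with the most tags of each germline gene (left) and imprinted gene (right) that has a listed V/SVZ peak, joined by a grey line. The dashed line marks 100 tags and an asterisk a region not at the promoter. CP lies to the right at every gene except Piwil4.

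The clustered protocadherins, cell adhesion genes whose alternative first exons are chosen by each neuron from a row of similar promoters, shared a group of closely spaced tag-rich regions. Of 56 genes, 47 were annotated with a tag-rich CP region and 22 with a V/SVZ one, over 29 distinct CP and 15 distinct V/SVZ regions, since the long overlapping transcripts share regions. These were 83.9% in CP and 39.3% in V/SVZ, beside 16.2% in CP and 6.85% in V/SVZ over all genes. No region was a promoter region by the annotation used. A CP region of 1361 bp, inside Pcdha1, Pcdha3, Pcdha4 and Pcdha5, had 492 CP and 192 V/SVZ tags (ratio 2.56) and no direct call. A region inside Pcdha7 had 411 CP and 156 V/SVZ tags with a CP over V/SVZ call. All 29 CP regions overlapped a V/SVZ peak, with a median ratio of 2.64, 17 carried a CP over V/SVZ call and none a V/SVZ over CP call, beside 98.8% shared, a median of 2.37, and 41.6% and 8.15% with these calls over all tag-rich CP regions. Reads from these similar exons may be split between copies, and how the authors treated reads with several matches is not given in the sources used here.

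Other multigene families were represented as well. Of 203 Zfp zinc finger genes, 41 (20.2%) had a tag-rich region in CP and 30 (14.8%) in V/SVZ, close to the 16.2% of all genes in CP and above the 6.85% in V/SVZ. Zfp358 had 594 CP and 173 V/SVZ tags, Zfp768 486 CP and 126 V/SVZ, and Zfp13, over its 3′ end, 486 CP and 164 V/SVZ. Of 340 olfactory and vomeronasal receptor genes, 19 (5.59%) had a tag-rich CP region and 4 a V/SVZ one, a smaller share than of all genes. Vmn2r29 had 536 CP and 257 V/SVZ tags at its promoter, Olfr1344 308 CP and 113 V/SVZ, and Olfr1349 290 CP and 72 V/SVZ. The promoter of Dux, a repeated double homeobox gene of early embryos, had 653 CP and 356 V/SVZ tags. Dux is a repeated gene and the receptors form large families, so reads may be split between similar copies.

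The lists of cortical lineage genes were short, and their counts stand beside shares of 16.2% in CP and 6.85% in V/SVZ over all genes. Of 9 upper-layer genes with a listed peak 2 had a tag-rich region in each layer (22.2%), of 12 deep-layer genes 1 in CP (8.33%), and of 12 radial glia and progenitor genes 4 in CP (33.3%) and 1 in V/SVZ (8.33%). All of the neuronal and glial examples lay inside genes or beyond their ends except Gfap. Cux1, an upper-layer transcription factor, had 485 CP and 176 V/SVZ tags in a region inside the gene (2.76) with a CP over V/SVZ call. Plxnd1, on the same list, had 119 CP and 65 V/SVZ tags inside the gene (1.83) and no direct call. Cux2 had 196 V/SVZ tags inside the gene, no listed CP peak and no direct call. Its fold of 15.31 lay close to the 14.71 at which the CP list stops, and its CP tags are not known. Sox5, a deep-layer factor, had 102 CP and 35 V/SVZ. Of the progenitor genes, Tnc, an extracellular matrix gene, had 300 CP and 104 V/SVZ tags, Gas1 235 CP and 96 V/SVZ in a region 1923 bp upstream, and Notch1 105 CP and 35 V/SVZ. All 3 carried a CP over V/SVZ call. Notch3 had 107 CP and 53 V/SVZ tags inside the gene (2.02) and no direct call.

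The 3 CP regions of postmitotic neuron genes had a median ratio of 1.82, close to the 1.81 of shared peaks. Tubb3, a neuronal tubulin, had 373 CP and 169 V/SVZ tags inside the gene (2.21), Ncam1, an adhesion molecule, 181 CP and 102 V/SVZ, and Camk2a, a synaptic kinase, 160 CP and 88 V/SVZ in a region 7907 bp upstream, none with a direct call. The promoter of Gfap, the intermediate filament of astrocytes, had 106 CP and 34 V/SVZ tags (3.12) and a CP over V/SVZ call. S100b, the other astrocyte gene with a tag-rich region, had 102 CP and 61 V/SVZ tags 3174 bp downstream (1.67) and no direct call. These were 2 of 6 astrocyte genes with a listed peak in CP (33.3%), and 0 had a tag-rich region in V/SVZ. Genes of cell types that dissected tissue can also hold gave 2 of 13 for microglia (Mrc1 246 CP and 88 V/SVZ, Tyrobp 104 CP and 24 V/SVZ in a region 9391 bp downstream), 1 of 9 for endothelium (Cdh5 240 CP and 86 V/SVZ) and 1 of 8 for erythroid cells, in CP, and none in V/SVZ. The CP shares were 15.4% for microglia, 11.1% for endothelium and 12.5% for erythroid cells, none above the 16.2% of all genes. The part of these cell types in any difference between the layers was not tested. None of 34 homeobox and other developmental transcription factor genes with a listed peak had a tag-rich region in either layer, a count of 0 that allows a share of up to 8.82%. Beside it stand 16.2% of all genes in CP and 6.85% in V/SVZ.

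Genes that write, read or use methylation and chromatin marks carried some. Mbd1, of the methyl-CpG-binding family, had 279 CP and 121 V/SVZ tags inside the gene. Mbd3, of the same family, had 244 CP and 110 V/SVZ. In all, 5 of 13 genes of the methylation machinery had a tag-rich region in CP (38.5%) and 2 in V/SVZ (15.4%), beside 16.2% in CP and 6.85% in V/SVZ over all genes. The Polycomb list gave 6 of 17 in CP (35.3%) and 4 in V/SVZ (23.5%), with Cbx2 at 276 CP and 107 V/SVZ tags, Cbx6 at 256 CP and 113 V/SVZ and Jarid2 at 232 CP and 131 V/SVZ. The Notch list gave 5 of 21 in CP (23.8%) and 1 in V/SVZ (4.76%), led by Rbpj, the DNA-binding partner of Notch, at 270 CP and 166 V/SVZ. The BMP, TGF-beta and FGF list gave 3 of 18 in CP (16.7%) and 1 in V/SVZ (5.56%), both near the shares over all genes. There a region 249 bp downstream of Bmp7 had 371 CP and 427 V/SVZ tags (ratio 0.869, 0.754 to 1.00) and a V/SVZ over CP call.

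The extreme ratios set the tags of whole overlapping peaks against each other, and these peaks can differ in length. Per bp of peak, the highest ratio at any tag-rich CP region was 7.49, and the lowest at any tag-rich V/SVZ region was 0.0655. By tags, the highest CP to V/SVZ ratio was 12.8 (6.23 to 30.3) at mm9 chr15:50314439-50315518, away from genes, with 102 CP and 8 V/SVZ tags. A region inside Irs2, an adaptor of insulin receptor signalling, had 281 CP and 30 V/SVZ tags (9.37, 6.42 to 14.1), and one inside Pyroxd2 had 102 CP and 10 V/SVZ. Of the 8 CP regions with the largest ratios, 6 had no gene within 10 kb, and so had 6 of the 8 with the smallest. Over all tag-rich CP regions the share was 38.0%. The lowest ratio by tags was 0.0410 (0.0216 to 0.0711) inside Scfd2, with 13 CP and 317 V/SVZ tags. Ncoa2, a nuclear receptor coactivator, had 27 CP and 213 V/SVZ tags (0.127, 0.0816 to 0.190), Fbxo18, a DNA helicase gene, 76 CP and 292 V/SVZ, and Myh10, a non-muscle myosin, 50 CP and 130 V/SVZ. The V/SVZ over CP calls at Scfd2, Ncoa2 and Fbxo18 had a deposited false discovery rate of 0%. Ccdc3 was lowest among the CP regions, with 158 CP and 328 V/SVZ tags.

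Another tag-rich region of the same layer lay within 50 kb of 713 CP regions (26.7%) and 152 V/SVZ regions (17.0%). Such shares depend on the number of regions in a set (2675 in CP, 895 in V/SVZ), and none was computed for smaller peaks. They therefore do not measure clustering or a difference between the layers. Besides the protocadherins, the 2 Mb of chromosome 10 from 79000000 (mm9) held 18 CP and 10 V/SVZ regions in the first Mb and 15 CP and 15 V/SVZ regions in the second. They included Mbd3, Ptbp1, a splicing regulator, S1pr4 (500 CP and 289 V/SVZ tags over its 3′ end), Nfic and Klf16. By chromosome, the share of listed peaks that were tag-rich was highest on chromosome 7 in both layers, at 7.34% (6.50 to 8.28) in CP and 2.76% (2.25 to 3.39) in V/SVZ. It was lowest on chromosome 13 in CP (3.67%) and on chromosome 14 in V/SVZ (1.11%). Regions in the first 5 Mb of listed sequence of a chromosome made up 5.50% of the CP set against 4.01% of smaller peaks, and 6.82% of the V/SVZ set against 3.79%.

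At the level of genes, 2041 of 11825 genes with a listed CP peak had a tag-rich region (17.3%), and 865 of 11515 in V/SVZ (7.51%). The 666 genes in both were 32.6% of the CP genes and 77.0% of the V/SVZ genes. At least 2 tag-rich regions occurred in 270 CP genes and 73 V/SVZ genes. The protocadherins led these counts, with 9 regions in CP and 11 in V/SVZ for Pcdha1, and outside them Sfi1 had 4 and Obsl1 3 in V/SVZ.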

How the data were processed

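Methylated DNA was measured in 1 library from CP and 1 from V/SVZ. The submitters' processing notes name CASAVA 1.8, Bowtie and mm9. The file headers carry MACS column names. Not given in the sources used here: the MACS and Bowtie versions, the caller's settings and the control. Tags are a deposited count of 1 library's reads per peak, not normalized. The significance is a score deposited by the authors (the negative log10 of p, times 10). The authors' fold is a ratio to local expectation, and the false discovery rate is a percent the authors deposited. Both control tables hold 65535 lines in order of fold, and 15993 CP and 6299 V/SVZ numbered peaks are not used here because they are not in them.

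Peaks were counted once each. A peak took the first class that any of its transcripts gave: promoter (over a 5′ end, or up to 1 kb upstream), 3′ end, inside, upstream, downstream, or no gene within 10 kb. Overlap counted from 1 bp. V/SVZ tags at a CP region are those of the overlapping V/SVZ peaks, and the reverse. Shares carry Wilson 95% intervals, ratios of tag counts exact binomial 95% intervals, and medians order-statistic intervals. They cover counting error only, treat reads as independent molecules, and leave ratios unscaled for depth. A count of 0 allows a share of 3 over the number examined. Computation used Python 3.11.15, pandas 2.3.3, numpy 2.4.6 and scipy 1.17.1 and was tested on simulated data. Of 13194 gene IDs, 13140 were in the RefSeq gene table.

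Named regions were those with the most tags, tags per bp, largest or smallest ratios, most tags at promoters, under direct calls or without a listed partner in each layer, genes with the most regions, and members of gene lists by tags. Genes at 3′ ends, the further testis genes, Prm2, list members past the first 5 and genes of the chromosome 10 cluster were picked after their values were seen. The regions, the lists and the rules were chosen with earlier results of these data known. Alternatives were other tag minimums, equal ranks, 50% overlap, a length window, a score minimum and ratios per bp.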

Additional observations from a re-analysis of the deposited data

Results flagged for a closer look

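Chromosome X lay outside the rule that chose the regions, and its peaks enter no comparison above, yet it held peaks that reached the same minimum. There were 136 CP control peaks of at least 100 tags on chromosome X, of 2294 listed there (5.93%), and the highest had 455 tags. In V/SVZ there were 10 such peaks of 1490 (0.671%), and the highest had 499 tags. The CP share on chromosome X was close to the 5.25% of the autosomes, and the V/SVZ share was below the 1.77% of the autosomes.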

How the results depend on the processing

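The minimum of 100 tags sets the size of the set. A minimum of 50 gave 7997 CP and 3108 V/SVZ regions with medians of 0.134 tags per bp in CP and 0.111 in V/SVZ. It gave CP shares of 2.55% at promoters, 45.9% inside and 42.4% away from genes, 97.1% shared, 35.9% with a CP over V/SVZ call and 6.85% with a V/SVZ over CP call. In V/SVZ, 30.6% lay away from genes, 81.9% were shared and 22.7% had a V/SVZ over CP call. A minimum of 200 gave 687 CP regions with 0.289 tags per bp and 215 V/SVZ regions with 0.350. CP shares were then 5.82% at promoters, 53.3% inside, 5.09% downstream and 30.6% away, with 99.4% shared and 14.7% under a V/SVZ over CP call. V/SVZ shares were 2.33% at promoters, 12.1% with a CP over V/SVZ call and 44.7% with a V/SVZ over CP call, so that the last stood above the 36.3% background with this minimum and below it at 100 tags. Taking the same rank in both layers (V/SVZ minimum 54 tags) gave 2723 V/SVZ regions with 0.117 tags per bp, 29.9% away from genes, 81.6% shared and 23.1% under a V/SVZ over CP call. Tag-rich partners then stood at 62.8% of CP and 61.7% of V/SVZ regions. With 50% overlap required, 93.0% of CP regions were shared. Direct calls with a score of at least 100 covered 23.9% (CP over V/SVZ) and 4.30% (V/SVZ over CP) of CP regions, and 9.05% (CP over V/SVZ) and 17.7% (V/SVZ over CP) of V/SVZ regions. Lengths of 500 bp to under 1000 bp gave 46.9% of CP regions with a CP over V/SVZ call, and in V/SVZ 61.6% inside genes, 23.8% away and 31.8% with a V/SVZ over CP call. Ratios per bp had medians of 2.10 at CP and 1.54 at V/SVZ regions. Keeping V/SVZ regions at or above the lowest CP fold, an alternative chosen after seeing the data, gave 88.6% shared and 84.9% with a tag-rich partner. Of the gene list counts, 43 were equal to or within 1.5 times of the main value and 7 moved. Of the other values, 45 stayed the same and 46 moved. Shares and medians were judged by the interval of the main value, and counts by 1.5 times. The cause of these shifts was not tested. No paired analysis was possible because each layer has 1 library and no result comes from a test. Depth limits single ratios: at 102 CP and 8 V/SVZ tags the interval spans 6.23 to 30.3.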
